A study of Mus musculus with 20 samples.

Results

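The genes described here are the thrombospondins Thbs1, Thbs2, Thbs3, Thbs4 and Comp and the receptors Cd36 and Cd47, 7 of the 52783 genes in the count table. They were taken by name as a ligand family with its best known receptors. The family was selected on measured values, since Thbs1 and Cd36 stood among the genes with higher counts in 66cl4 than in 67NR CD45+ cells. The study also listed Comp among the genes raised in 66cl4 CD45+ cells. The CD45+ comparison of the tumours is therefore given as a description without a test for all 7 genes. The comparisons of the gates, and of the tumour effect between them, are given in the same way for Thbs1, Cd36 and Comp. The comparison of the tumours in CD45- cells was not the one on which the family was selected, and it was tested for every gene that passed the filter on low counts. Levels of Thbs1 in CD45- cells had, however, been reported by the study.

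RNA was sequenced from cells of mammary tumours that grew from the mouse breast cancer lines 66cl4 and 67NR, which are related lines of the 4T1 model that form metastatic and non-metastatic tumours. In each of 10 female BALB/cJ mice aged 8 to 12 weeks, 1000000 cells of 1 line were injected into the mammary fat pad, and tumours were taken after 21 to 26 days. The model is immunocompetent, and the labels name no treatment and no engineered allele. Each tumour was sorted on CD45, the leukocyte surface marker encoded by Ptprc, which gave 4 groups of 5 libraries: 66cl4 CD45+, 67NR CD45+, 66cl4 CD45- and 67NR CD45- cells. Each tumour type comes from a single cell line, and the CD45- gate holds both cancer cells and non-immune host cells. In these bulk libraries fewer cells of a type and less RNA per cell cannot be told apart. The labels of 66cl4 animals 5 and 6 give a title and a cell type that disagree, and groups follow the titles. Ptprc was 17697 to 20867 normalised counts in the 66cl4 CD45+ libraries and 10.6 to 161 in the 66cl4 CD45- libraries, and in every animal it was higher in the library titled CD45+. In the 67NR libraries it was 15890 to 28449 against 145 to 473. Total counts ranged from 12960000 to 28080314 per library, at which a count of 3, the limit that a count of 0 allows, corresponds to 1.87 to 4.68 normalised counts. This limit covers counting error only, whereas standard errors and intervals of fold changes include the spread between animals. Normalised counts are deposited counts divided by a size factor for library depth, and they compare 1 gene between libraries.

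Thrombospondins are large secreted glycoproteins of the extracellular matrix that bind several cell surface receptors, proteases and growth factors. Thbs1 and Thbs2 form trimers with the type 1 repeats that bind CD36, and both inhibit angiogenesis, while Thbs1 also activates latent TGF-beta. Thbs3, Thbs4 and Comp form pentamers without type 1 repeats and are best known from bone, tendon, muscle and cartilage. CD36 is a scavenger receptor and fatty acid transporter of macrophages, platelets, fat cells and the endothelium of small vessels. CD47 is expressed by almost every cell, and its binding of SIRPα on macrophages restrains phagocytosis.

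Reads can be divided between genes that share sequence, so the identical stretches of the family's transcripts were measured in the GENCODE M21 mouse transcripts. The longest identical stretch between Thbs1 and Thbs2 transcripts was 26 bases, and that between Thbs4 and Comp was also 26 bases, shorter than the reads of 86 cycles. Among all 7 genes the longest was 31 bases, between Thbs1 and Cd47, also shorter than the reads. Both stretches of 26 bases are shown here because they mark the limit of sequence sharing among the thrombospondins.
Thbs1 and Thbs2: ggagaccgctgtgacaactgccccta
Thbs4 and Comp: cagaccatgaacagtgaccctggcct
No window of 86 bases of Thbs2, Thbs4, Comp, Cd36 or Cd47 occurred in a transcript of another gene on either strand. In Thbs3, 110 of 5391 windows (2.04%) matched Mtx1 on the opposite strand, and in Thbs1 42 of 5986 (0.702%) matched Gm29233 on the opposite strand.

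Promoter sequences were available for Thbs2, Thbs3, Thbs4, Cd36 and Cd47, which are 5 of the 7 genes, in a RefSeq table on GRCm38.p6. Each window holds 250 bases before and 50 bases after a start site. The windows of Thbs2 and Thbs3 are shown because both genes were lower in CD45+ than in CD45- cells of both tumours, and that of Cd36 because its difference between the tumours had opposite directions in the gates. Capitals mark matches on either strand to TATAAA, the letters of the TATA box, to CCAAT, those of the CCAAT box, or to GGGCGG, those of the GC box.
Thbs2, chr17:14694213-14694512, minus strand: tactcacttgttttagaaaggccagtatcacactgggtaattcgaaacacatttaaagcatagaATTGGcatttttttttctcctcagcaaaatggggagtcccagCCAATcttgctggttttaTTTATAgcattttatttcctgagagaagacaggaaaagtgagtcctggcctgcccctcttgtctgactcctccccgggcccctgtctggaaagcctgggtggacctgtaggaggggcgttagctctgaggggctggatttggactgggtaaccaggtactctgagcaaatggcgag
Thbs3, chr3:89214930-89215229, plus strand: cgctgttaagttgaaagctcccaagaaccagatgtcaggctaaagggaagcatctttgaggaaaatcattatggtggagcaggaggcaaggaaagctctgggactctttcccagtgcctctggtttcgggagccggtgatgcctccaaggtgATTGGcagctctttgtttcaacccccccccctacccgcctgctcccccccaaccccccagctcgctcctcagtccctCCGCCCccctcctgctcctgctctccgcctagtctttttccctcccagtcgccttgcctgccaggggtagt
Cd36, chr5:17835847-17836146, minus strand: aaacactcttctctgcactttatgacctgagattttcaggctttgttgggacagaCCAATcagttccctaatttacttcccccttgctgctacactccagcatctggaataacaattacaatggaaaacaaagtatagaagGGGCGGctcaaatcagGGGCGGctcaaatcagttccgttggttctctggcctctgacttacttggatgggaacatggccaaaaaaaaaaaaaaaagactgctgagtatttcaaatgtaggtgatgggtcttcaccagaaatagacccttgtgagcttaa
The Thbs2 window held 1 TATAAA and 2 CCAAT matches and no GGGCGG. The Thbs3 window held 1 CCAAT and 1 GGGCGG match, and the Cd36 window 1 CCAAT and 2 GGGCGG matches. Among the 32851 windows of full length that were counted, with 1 chromosome left out, 13.6% held TATAAA, 37.4% held CCAAT and 35.7% held GGGCGG. The 50 bases after the start were found whole in a GENCODE M21 transcript of Thbs3, whereas the longest matching run was 23 bases for Thbs2 and 7 for Cd36, so the Cd36 window belongs to a start that is not among these transcripts. These matches are a description of the letters in 1 window per gene.

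Thbs1 was the most abundant thrombospondin in all 4 groups. To compare genes per length, TPM were computed with the median transcript length of each gene. Thbs1 reached 691 ± 406 TPM in CD45+ and 566 ± 74.9 in CD45- cells of 66cl4 tumours (SD, n = 5). In 67NR tumours it reached 97.9 ± 46.6 and 43.5 ± 11.8. The 5 family members together summed to 693 ± 406 and 597 ± 76.6 TPM in 66cl4 and to 100.4 ± 47.0 and 62.4 ± 11.6 TPM in 67NR tumours. Thbs1 made up 99.5% of this sum in the CD45+ gate of 66cl4 and 97.3% in that of 67NR tumours, and 94.8% in the CD45- gate of 66cl4. Its share was 68.9% among 67NR CD45- cells, with a range of 58.2 to 77.6% over the libraries, all of them below the lowest share of any other group, 94.0%. There, Thbs3 took 18.6%, Comp 6.43%, Thbs2 5.64% and Thbs4 0.394%. With the longest transcript in place of the median, Thbs1 made up 81.0% in 67NR CD45- cells, Thbs2 8.09%, Thbs3 7.36% and Comp 3.12%, so the order of the minor members depended on the length used. The median length of the 11 Thbs3 transcripts in the reference was 745 bases and the longest 4034.

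**Figure D1:**
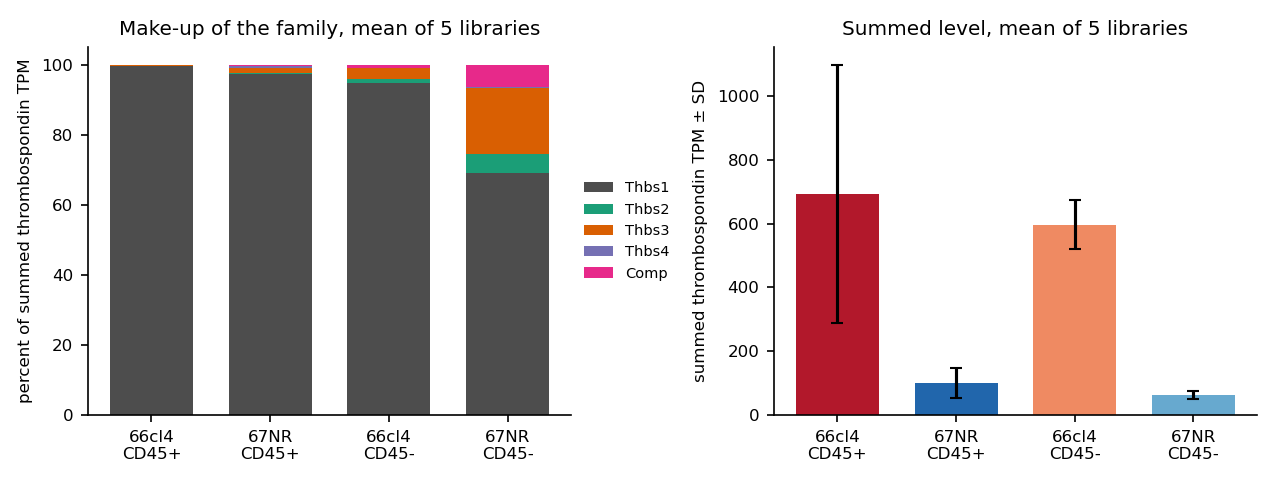
Left, the mean share of each thrombospondin in the summed TPM of the family (percent, stacked bars, 5 libraries per group); right, the mean summed TPM with SD as error bars. Thbs1 took 99.5, 97.3 and 94.8% among 66cl4 CD45+, 67NR CD45+ and 66cl4 CD45- cells and 68.9% among 67NR CD45- cells, whose sum of 62.4 TPM was the lowest.

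Thbs1 (ENSMUSG00000040152), the best studied thrombospondin, was higher in 66cl4 than in 67NR tumours in both gates. In the CD45- gate the 66cl4 libraries of animals 3, 4, 5, 6 and 7 held 33859, 31897, 35861, 28279 and 28829 normalised counts. The 67NR libraries of animals 1, 4, 5, 6 and 7 held 2900, 1867, 2512, 3319 and 1805. No 67NR library came near the lowest 66cl4 library, and the 66cl4 values were close to each other, with a coefficient of variation of 10.2%. The means were 31745 ± 3238 and 2481 ± 654 (SD, n = 5 each), a ratio of 12.8. By edgeR's quasi-likelihood test the log2 fold change was 3.71 (SE 0.177, Benjamini-Hochberg adjusted p = 4.10e-10). It was 3.73 without 66cl4 animals 5 and 6 (adjusted p = 3.10e-08). Genes with a log2 fold change beyond 1 in either direction and an adjusted p under 0.05 count as called. By this rule 32.2% of the 14844 genes tested in CD45- cells were called, 13.2% as higher and 18.9% as lower in 66cl4.

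In the CD45+ gate Thbs1 varied far more between animals. The 66cl4 libraries of animals 3, 4, 5, 6 and 7 held 46844, 27930, 84473, 28761 and 20181 normalised counts. Those of 67NR animals 1, 4, 5, 6 and 7 held 10621, 5359, 4119, 6673 and 2466. The groups did not overlap, and the highest values of the tumours came from 66cl4 animal 5 and 67NR animal 1. The means were 41638 ± 25865 and 5848 ± 3088, a ratio of 7.12, and the log2 fold change was 2.82 (SE 0.486). Without 66cl4 animals 5 and 6 it was 2.43, and 11.8% of the genes tested in CD45+ cells were called in that comparison, which chose this gene. Between the gates of 66cl4 tumours, Thbs1 was higher in CD45+ cells in 3 of 5 animals, with ratios from 0.700 to 2.36 and a log2 fold change of 0.36 (SE 0.325). This value was -0.07 once the CD45+ library of animal 5 was left out, and -0.04 without animals 5 and 6. In 67NR tumours Thbs1 was higher in CD45+ cells in 5 of 5 animals, with ratios from 1.37 to 3.66 and a log2 fold change of 1.24 (SE 0.345), which was 0.905 once the CD45+ library of animal 1 was left out. The order of the 4 mean levels was thus 66cl4 CD45+, 66cl4 CD45-, 67NR CD45+ and 67NR CD45-, and the values of both neighbouring pairs within a tumour overlapped. The interaction, which is the log2 fold change of 66cl4 over 67NR in CD45+ cells less that in CD45- cells, was -0.86 for Thbs1 (SE 0.495).

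**Figure D2:**
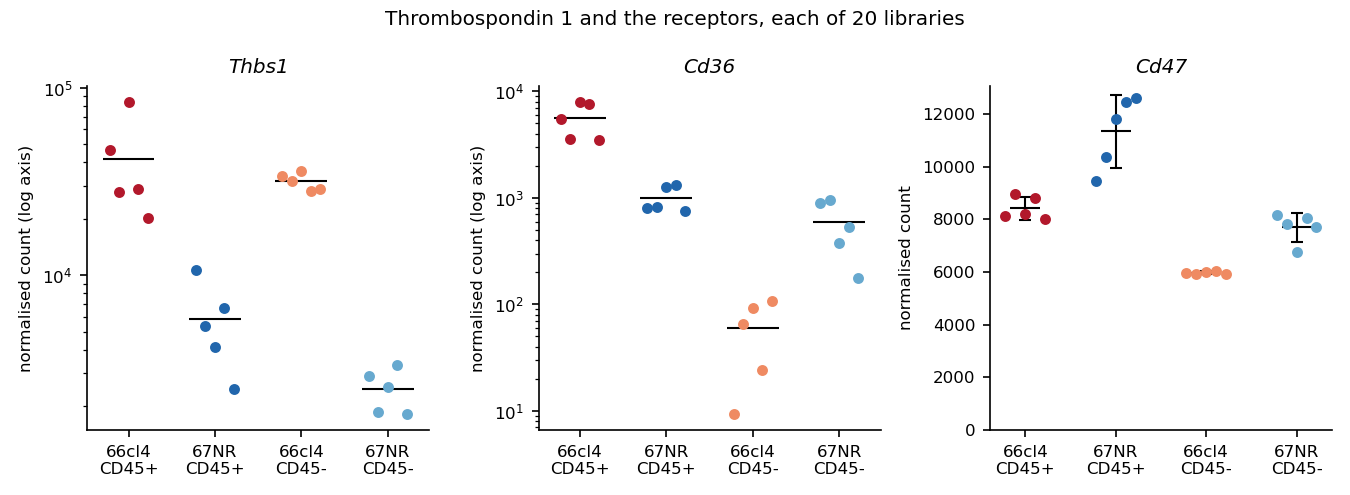
Normalised counts of Thbs1, Cd36 (log axes) and Cd47 (linear axis from 0) in each library (points, ordered by animal number within a group), with the group mean as a line and, for Cd47, SD as error bars. Thbs1 separates the tumours in both gates, Cd36 is highest in 66cl4 CD45+ cells (3471 to 7999) and lowest in 66cl4 CD45- cells (9.29 to 109), and Cd47 is highest in 67NR CD45+ cells (9446 to 12616).

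Platelets store thrombospondin 1 and carry CD36, so platelet markers were examined beside Thbs1. Their summed normalised counts ranged from 4765 to 11950 in 66cl4 CD45+ and from 2986 to 6674 in 67NR CD45+ libraries. Among 66cl4 animals, animal 5 had the most Thbs1 and the highest sum, as it had of macrophage and neutrophil markers. Animal 7, with the least Thbs1, had a platelet sum of 7376, above the 7323 of animal 3. In 67NR tumours animal 1 had the most Thbs1 with a sum of 4871, whereas animal 6 had the highest platelet sum. Most of the sum was Pf4, with means of 7307 and 3729, whereas the integrin gene Itga2b, which defines the lineage, had 9.27 and 18.7. Of the 10 markers 4 passed the filter in CD45+ cells, where 0 were called higher and 1 lower in 66cl4. In CD45- libraries the sum was 41.2 to 244 in 66cl4 and 184 to 557 in 67NR, and Thbs1 moved the other way. The summed epithelial markers moved in the direction of Thbs1 in CD45- cells, with sums of 6062 to 6849 in 66cl4 and 132 to 402 in 67NR, but 2 keratins carried the sum. Krt8 had means of 5353 and 61.6 normalised counts and Krt18 1149 and 58.6, both called higher, whereas Epcam had 12.1 and 32.8 and was called lower, and the other 2 markers tested were not called. The part of platelet and epithelial cells in the level of Thbs1 was not tested.

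Thbs2 (ENSMUSG00000023885), the second trimeric and anti-angiogenic family member, was mainly found in CD45- cells. The CD45- libraries of 66cl4 animals 3, 4, 5, 6 and 7 held 287, 787, 296, 295 and 482 normalised counts, and those of 67NR animals 1, 4, 5, 6 and 7 held 179, 176, 217, 318 and 319. The tumours overlapped, and 66cl4 animal 4 was the highest. The means were 429 ± 216 and 242 ± 72.0 (SD, n = 5), with a log2 fold change of 0.87 (SE 0.322, adjusted p = 0.0328), under the fold required for a call. The adjusted p was 0.0751 with all libraries in 1 fit and 0.0855 without the filter. Without 66cl4 animals 5 and 6 the value was 1.17 (adjusted p = 0.0109), which is called, whereas without 66cl4 animal 4 it was 0.53 (adjusted p at most 0.0848 over the libraries left out in turn). In CD45+ libraries Thbs2 was 5.56 to 53.3 in 66cl4 and 6.10 to 31.2 in 67NR, with a log2 fold change of 0.55 (SE 0.590) between the overlapping tumours. Thbs2 was lower in the CD45+ than in the CD45- library of every animal. The log2 fold change between the gates was -4.02 in 66cl4 tumours (SE 0.509, adjusted p = 1.82e-05) and -3.76 in 67NR tumours (SE 0.380, adjusted p = 5.47e-06). In these comparisons of the gates 44.4% of the genes tested in 66cl4 tumours were called, 23.9% as higher and 20.5% as lower in CD45+ cells, and in 67NR tumours 39.8%, 20.2% and 19.6%.

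Thbs3 (ENSMUSG00000028047), a pentameric member expressed in bone and other connective tissue, was likewise higher in both CD45- groups, with less spread between their animals. Its CD45- libraries held 228, 245, 252, 287 and 198 normalised counts in 66cl4 animals 3, 4, 5, 6 and 7, and 111, 131, 160, 152 and 184 in 67NR animals 1, 4, 5, 6 and 7. The lowest 66cl4 library lay above the highest 67NR library. The means were 242 ± 32.7 and 148 ± 27.7 (SD, n = 5), and the log2 fold change of 0.75 (SE 0.147, adjusted p = 0.000476) was under the fold required for a call. It was 0.66 without 66cl4 animals 5 and 6 (adjusted p = 0.00650). Its levels in CD45+ libraries overlapped, at 6.95 to 18.3 for 66cl4 and 8.23 to 37.4 for 67NR, with a log2 fold change of -0.27 (SE 0.422) that was 0.16 without 67NR CD45+ animal 4. Thbs3 was lower in the CD45+ library of every animal, with a log2 fold change of -3.97 in 66cl4 (SE 0.217, adjusted p = 1.02e-08) and -2.97 in 67NR tumours (SE 0.347, adjusted p = 1.69e-05). Its interaction was -0.99 (SE 0.409, adjusted p = 0.0558), just outside the threshold. In that test 43.1% of 16453 genes passed, 21.9% with a higher and 21.2% with a lower value in CD45+ than in CD45- cells.

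Comp (ENSMUSG00000031849), the cartilage oligomeric matrix protein, was a low-count gene with the same preference for the CD45- gate. It held 102, 56.1, 46.6, 25.5 and 41.9 normalised counts in the CD45- libraries of 66cl4 animals 3, 4, 5, 6 and 7. In 67NR animals 1, 4, 5, 6 and 7 it held 31.6, 39.0, 49.2, 32.8 and 34.8. The tumours overlapped, with means of 54.5 ± 28.9 and 37.5 ± 7.12 (SD, n = 5) and a log2 fold change of 0.56 (SE 0.308, 95% interval -0.05 to 1.16, adjusted p = 0.124). The highest library, that of 66cl4 animal 3, weighed on this value, which was 0.24 without it and 0.87 without animals 5 and 6 (adjusted p = 0.0239, under the fold for a call). CD45+ libraries held 4.78 to 11.1 in 66cl4 and 2.03 to 11.98 in 67NR, too few for the CD45+ comparison. Every animal had less Comp in its CD45+ library, and the log2 fold changes were -2.80 (SE 0.402) in 66cl4 and -2.83 (SE 0.412) in 67NR tumours. These values are a description, since the study had listed Comp from the CD45+ libraries. Its interaction, likewise a description, was 0.04 (SE 0.497), with a 95% interval of -0.93 to 1.02. The CD45+ part of this value rests on counts too low for the CD45+ comparison, so it does not show that the tumour effects were alike.

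Thbs4 (ENSMUSG00000021702), a member known from muscle and tendon, was near the limit of detection in all groups. Its highest value was 18.3 normalised counts, in a 66cl4 CD45+ library, and the CD45- library of 66cl4 animal 6 had 0 counts, which allows up to 3 counts. The means were 12.4 ± 5.14 in 66cl4 CD45+, 9.96 ± 3.41 in 67NR CD45+, 7.39 ± 3.99 in 67NR CD45- and 3.31 ± 3.198 in 66cl4 CD45- cells (SD, n = 5). Neighbouring groups in this order overlapped. In 67NR tumours the log2 fold change between the gates was 0.42 (SE 0.433, adjusted p = 0.407), with a 95% interval of -0.43 to 1.27. In CD45+ cells the tumours differed by 0.36 (SE 0.395), and Thbs4 did not pass the filter in the other 2 comparisons. The interaction was 1.45 (SE 0.765, adjusted p = 0.133), and leaving out 66cl4 animal 5 from the CD45- gate gave 2.09 (adjusted p = 0.0365). The CD45- part of these values rests on counts too low for the CD45- comparison. Between the gates of 66cl4 tumours, where Thbs4 was not tested, the ratio of the means was 3.74, and 24 of 25 pairs of libraries were higher in CD45+ cells, at counts near the limit.

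**Figure D3:**
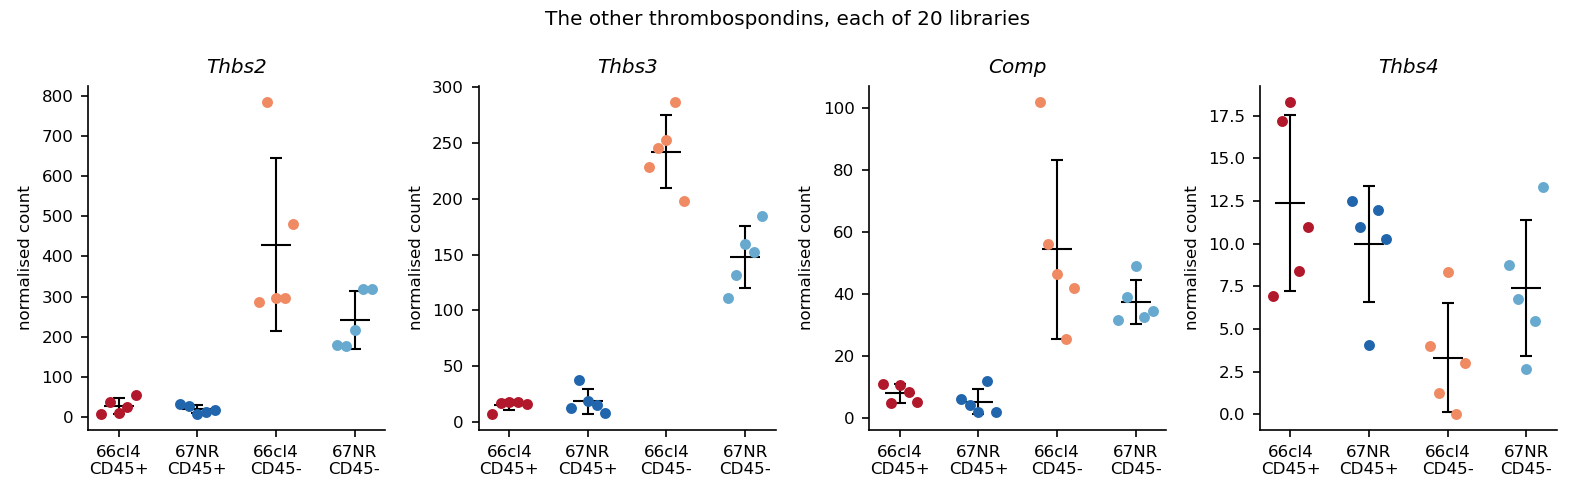
Normalised counts of Thbs2, Thbs3, Comp and Thbs4 in each library (points, ordered by animal number within a group), with mean and SD as lines and error bars; each panel has its own linear axis. Thbs2, Thbs3 and Comp were higher in CD45- than in CD45+ cells of both tumours without overlap, whereas Thbs4 stayed at or below 18.3 everywhere.

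Fibroblast markers moved with Thbs2, Thbs3 and Comp between the gates. The 8 markers summed to 8016 to 13740 normalised counts in 66cl4 CD45- and 182 to 1398 in 66cl4 CD45+ libraries. The sums of 67NR tumours spanned 14111 to 21920 and 899 to 3761. None of the 8 markers was at 0 in any group, and between the gates 7 of 8 were called lower in CD45+ cells of 66cl4 and 8 of 8 in 67NR tumours. The mean level in CD45+ cells as a share of that in CD45- cells had a median of 7.75% over the fibroblast markers in 66cl4 tumours (range 4.03 to 122%) and 11.0% in 67NR tumours (5.42 to 46.9%). The same share was 6.01% for Thbs2, 6.32% for Thbs3 and 14.7% for Comp in 66cl4 tumours. In 67NR tumours it was 7.54%, 12.6% and 14.3%, and all these values lay inside the ranges. The upper end in 66cl4 tumours, 122%, was Fap alone, a gene at low counts. Fap had at most 17.89 normalised counts in 66cl4 CD45+ and 13.97 in 66cl4 CD45- libraries, so this end is a weak limit. For Thbs1 the share was 131% in 66cl4 and 236% in 67NR tumours, above the range of the markers in 67NR tumours. In 66cl4 tumours it was far above the median of the markers, 7.75%, and close only to Fap. The ratio of the Thbs1 means there was 0.974 once the CD45+ library of animal 5 was left out. Between the tumours, 5 of 8 fibroblast markers were called lower and 0 higher in 66cl4 CD45- cells. Pdgfra, with means of 4441 in 66cl4 and 2953 in 67NR, and Col1a2, with 1195 and 940, were higher in 66cl4 without reaching the fold for a call, in the direction of Thbs2 and Thbs3. The part of fibroblasts in the levels of these genes was not tested.

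Cd36 (ENSMUSG00000002944) was higher in 66cl4 than in 67NR among CD45+ cells and lower in 66cl4 among CD45- cells. The CD45- libraries of 66cl4 animals 3, 4, 5, 6 and 7 held 9.29, 65.5, 92.4, 24.4 and 109 normalised counts. Those of 67NR animals 1, 4, 5, 6 and 7 held 894, 963, 381, 529 and 177. All 67NR libraries lay above all 66cl4 libraries, and both groups spread widely, with coefficients of variation of 71.1% and 56.9%. The means were 60.1 ± 42.7 and 589 ± 335 (SD, n = 5), a level 9.80 times higher in 67NR cells. The log2 fold change was -3.22 (SE 0.634, adjusted p = 0.00148), and Cd36 was called lower, as 18.9% of all genes tested were. Without 66cl4 animals 5 and 6 it was -3.16 (adjusted p = 0.0106).

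In CD45+ cells Cd36 held 5534, 3541, 7999, 7542 and 3471 normalised counts in 66cl4 animals 3, 4, 5, 6 and 7. In 67NR animals 1, 4, 5, 6 and 7 it held 798, 825, 1255, 1329 and 758. Here the order was turned, again with no overlap, with means of 5618 ± 2139 and 993 ± 275, a ratio of 5.66 and a log2 fold change of 2.51 (SE 0.279). Without 66cl4 animals 5 and 6 the log2 fold change was 2.08. Within 66cl4 tumours the CD45+ library held more Cd36 than the CD45- library in 5 of 5 animals, by 31.9 to 596 times, with a log2 fold change of 6.48 (SE 0.552). Within 67NR tumours it held more in 3 of 5 animals, with ratios of 0.858 to 4.29 and a log2 fold change of 0.75 (SE 0.385). The gates overlapped in 67NR and not in 66cl4 tumours. The tumour effect was 5.75 higher in CD45+ than in CD45- cells on the log2 scale (SE 0.684), which is given without a test since the CD45+ values chose the gene. The order of levels was 66cl4 CD45+, 67NR CD45+, 67NR CD45- and 66cl4 CD45-, in which the second and the third overlapped.

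Several cell types are known to carry CD36, and markers of some of these and of other types were set beside it. Endothelial markers summed to 525 to 1067 normalised counts in 66cl4 CD45- and 1119 to 4499 in 67NR CD45- libraries, which did not overlap, and 7 of 8 were called lower in 66cl4. None of the 8 was at 0 in any group. Among the 67NR CD45- libraries, animals 4 and 1 had the highest sums, 4499 and 2943, and also the most Cd36, and animal 7 had the least of both. Pericyte and smooth muscle markers summed to 395 to 1038 against 1133 to 4087, and 7 of 7 tested were called lower in 66cl4. Macrophage markers summed to 178 to 1999 in 66cl4 CD45- and 1307 to 4600 in 67NR CD45- libraries, and 4 of 8 were called lower. Of the 67NR CD45- libraries, that of animal 4 again had the highest sum and that of animal 7 the lowest. In 67NR tumours the macrophage markers of CD45- cells stood at 1.94 to 3.83% of their CD45+ means, whereas Cd36 stood at 59.3%. The corresponding values of 66cl4 tumours were 0.754 to 1.31% for the markers and 1.07% for Cd36. The 7 adipocyte markers summed to 1498 to 1976 in 66cl4 and 991 to 1358 in 67NR CD45- libraries. Nearly all of this sum was Adipor2, with means of 1662 and 1205. Adipoq, which defines the lineage, had at most 0.998 in these libraries, and Lep was at 0 in all groups. In CD45+ cells, where Cd36 was higher in 66cl4, 5 of 7 neutrophil markers were called higher, with sums of 44201 to 125311 against 7186 to 52336. There 0 of 8 macrophage markers were called higher and 1 lower, and of 5 monocyte markers tested 0 were called higher and 2 lower. The part of endothelial cells, pericytes, macrophages, monocytes and neutrophils in the level of Cd36 was not tested.

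**Figure D4:**
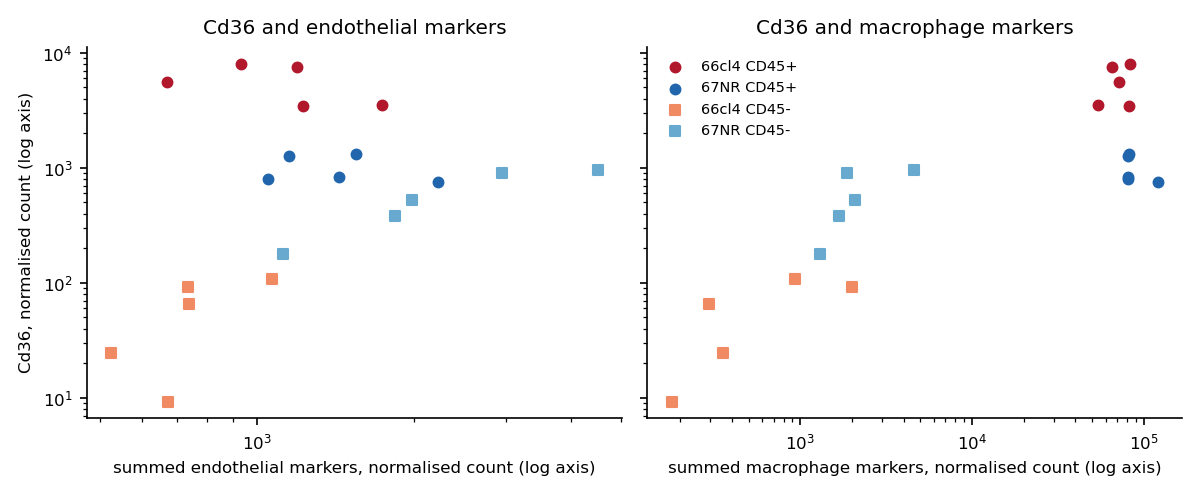
Normalised counts of Cd36 in each library against the summed normalised counts of 8 endothelial (left) and 8 macrophage markers (right), all axes logarithmic, circles for CD45+ and squares for CD45- cells. Of the 67NR CD45- libraries (177 to 963), those of animals 1 and 4 lie within the Cd36 range of 67NR CD45+ libraries (758 to 1329), and the macrophage sums were 1307 to 4600 in the CD45- and 80824 to 120685 in the CD45+ gate.

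Cd47 (ENSMUSG00000055447) had a high level in every library, and its differences were under the fold for a call in all 4 comparisons. The CD45- libraries of 66cl4 animals 3, 4, 5, 6 and 7 held 5950, 5908, 6003, 6049 and 5926 normalised counts, a coefficient of variation of 0.970%. Those of 67NR animals 1, 4, 5, 6 and 7 held 8146, 7803, 6772, 8065 and 7725. The groups did not overlap, with means of 5967 ± 57.9 and 7702 ± 549 (SD, n = 5). The log2 fold change was -0.34 (SE 0.0775, adjusted p = 0.00157), under the fold required for a call, and -0.32 without 66cl4 animals 5 and 6 (adjusted p = 0.0140). In CD45+ cells 66cl4 animals 3, 4, 5, 6 and 7 held 8141, 8954, 8194, 8810 and 8002, and 67NR animals 1, 4, 5, 6 and 7 held 9446, 10351, 11802, 12463 and 12616. The tumours again did not overlap, with a log2 fold change of -0.41 (SE 0.110). Cd47 was higher in the CD45+ library in 5 of 5 animals of each tumour, by 1.35 to 1.52 times in 66cl4 and 1.16 to 1.74 times in 67NR. These log2 fold changes were 0.47 (SE 0.0888, adjusted p = 0.000408) and 0.55 (SE 0.101, adjusted p = 0.000454), also under the fold for a call. The interaction was -0.07 (SE 0.127, 95% interval -0.32 to 0.18, adjusted p = 0.675). In the order of levels, 67NR CD45+ cells were followed by 66cl4 CD45+, 67NR CD45- and 66cl4 CD45- cells, and of these neighbours the second and the third overlapped. Per length, Cd47 reached 357 ± 37.1, 488 ± 82.5, 268 ± 10.4 and 341 ± 40.6 TPM in 66cl4 CD45+, 67NR CD45+, 66cl4 CD45- and 67NR CD45- cells. Cd36 reached 111 ± 33.9, 20.5 ± 6.31, 1.31 ± 0.958 and 12.6 ± 7.49 TPM in the same order, lower than Cd47 in every group.

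**Figure D5:**
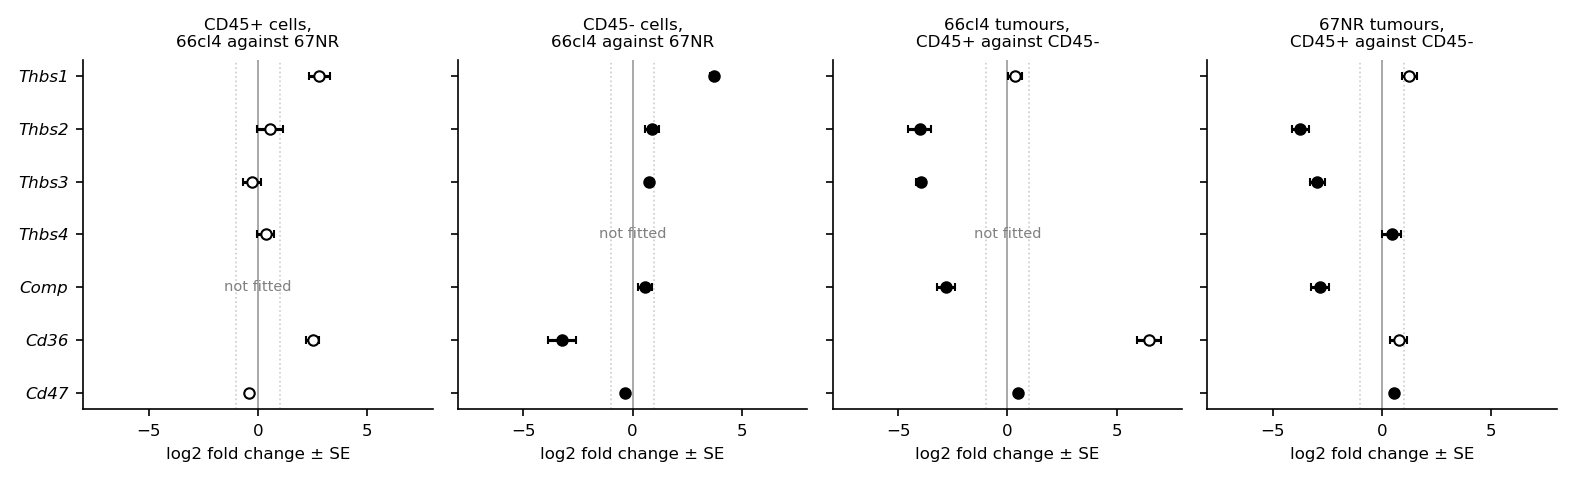
Log2 fold changes with SE from edgeR for the 7 genes in 4 comparisons (filled, tested; open, described without a test; dotted lines at -1 and 1, the fold for a call). In CD45- cells Thbs1 lies at 3.71 and Cd36 at -3.22, and between the gates Thbs2, Thbs3 and Comp lie between -4.02 and -2.80. Comp is drawn filled between the gates but is given there as a description.

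The members were further set beside genes that share their pathways, on lists compiled with results of these data known. List counts stand against 11.8% of all genes called in CD45+ cells, and against 13.2% called higher and 18.9% lower in CD45- cells. For the CD45+ comparison of the tumours, which chose the family, the calls and values of list genes are likewise a description. In CD45- cells, the list of other thrombospondin receptors had 4 of 17 tested genes called higher and 7 lower in 66cl4 (median log2 fold change -0.28, against -0.0091 for all genes). Among them, Vldlr, a lipoprotein receptor, was higher by 3.80 (SE 0.445, adjusted p = 8.32e-06) and Itgb3, the beta subunit of the vitronectin receptor, was lower at -2.02 (SE 0.377, adjusted p = 0.000293). In the same cells Sirpa, which encodes the macrophage receptor of CD47, was lower at -3.03 (SE 0.491, adjusted p = 0.000353), and 2 of 12 genes of CD47 partners and engulfment were higher and 4 lower (median -0.39). In CD45+ cells edgeR called 0 of 14 other thrombospondin receptors (median 0.15, against 0.0098 for all genes), with 5 at an unadjusted p under 0.05, 4 called by DESeq2 and 1 without 66cl4 animals 5 and 6. Of the CD47 partners 1 of 13 was higher and 3 lower there (median -0.07), the latter being the receptor tyrosine kinases Tyro3 and Axl and their ligand Gas6.

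Genes of lipid handling linked to CD36 were split in the same cells. In CD45+ cells 2 of 15 were higher in 66cl4 and 2 lower (median 0.21). The scavenger receptors Olr1 and Msr1 rose with log2 fold changes of 3.27 (SE 0.406) and 1.43 (SE 0.221), as Cd36 was higher. Olr1, like Cd36, was already listed by the study among genes raised in 66cl4 CD45+ cells, as were Ltbp4, Mmp9 and Tgfb2, named below. Pparg, the nuclear receptor known to induce Cd36, was lower at -1.14 (SE 0.243), and the fatty acid carrier Fabp4 at -1.39 (SE 0.396). In CD45- cells, where Cd36 was lower, 3 of 14 were higher and 5 lower (median -0.73), and Fabp4 and Pparg were lower at -4.17 (SE 0.524, adjusted p = 4.82e-05) and -3.51 (SE 0.512, adjusted p = 3.53e-05). Between the gates 11 of 15 genes of the list were higher in CD45+ cells of 66cl4 and 0 lower (median 1.97, against 0.0031 for all genes), where 23.9% of all genes were higher and 20.5% lower. In 67NR tumours 9 were higher and 1 lower (median 1.39, against -0.049), beside 20.2% and 19.6% of all genes.

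For latent TGF-beta, which Thbs1 can activate, 5 of 13 genes were higher and 2 lower in 66cl4 CD45- cells (median -0.21), where Thbs1 was 12.8 times higher. Tgfb1 rose by 1.95 (SE 0.155, adjusted p = 9.00e-08) and Ltbp4, a binding protein of the latent complex, by 4.08 (SE 0.206, adjusted p = 1.99e-09). In CD45+ cells 1 of 13 was higher, Ltbp4, and 3 lower, Ltbp1, Ltbp2 and Ltbp3 (median 0.18), but without 66cl4 animals 5 and 6 these 4 calls fell to 1. Other matricellular genes in CD45- cells were called in 10 of 13 cases, 4 higher and 6 lower (median -0.99), where 32.2% of all genes were called. They included Ccn4 at 5.73 (SE 0.179, adjusted p = 7.86e-12) and Ccn3 at -5.98 (SE 0.251, adjusted p = 1.11e-10), which lie further from 0 than Thbs1 in either direction. In CD45+ cells 2 of 10 were higher and 3 lower (median -0.40), 5 calls that fell to 2 without 66cl4 animals 5 and 6. Between the gates 9 of 11 were lower in CD45+ cells of 66cl4 and 11 of 13 of 67NR, beside 20.5% and 19.6% of all genes, as were Thbs2, Thbs3 and Comp, and Tgfbi was higher in both. Among the proteases that act on thrombospondins, 1 of 8 was higher and 4 lower in 66cl4 in CD45+ cells (median -1.31; 3 calls without 66cl4 animals 5 and 6), and 1 higher and 3 lower in CD45- cells (median -0.67). Mmp9 was the higher one and Mmp2, Adamts7 and Adamts12 were among the lower ones in both gates. Of 12 tendon and cartilage genes set beside Comp and Thbs4, 5 were tested in CD45- cells, with Col11a1 higher and Sox9 and Prg4 lower (median 0.68), and in CD45+ cells 3, with Sox9 lower (median -1.29; 2 calls without 67NR CD45+ animal 7).

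For the interaction, where Cd36 had 5.75, the lipid handling list had 7 of 15 genes higher and 1 lower (median 0.81, against 0.029 for all genes), where 43.1% of all genes passed, 21.9% higher and 21.2% lower. Fabp4 (2.83, SE 0.650, adjusted p = 0.00177) and Pparg (2.36, SE 0.611, adjusted p = 0.00425) were among the higher ones. Olr1 also passed, but it was at the limit of detection in CD45- cells, with means of 1.99 and 2.57 normalised counts, so its tumour difference there was not measured. The other thrombospondin receptors had 6 higher and 4 lower of 17 (median 0.13) and the CD47 partners 5 and 3 of 13 (median 0.12). The latent TGF-beta list had 4 higher and 6 lower of 14 (median -0.91), the matricellular list 3 and 4 of 13 (median 0.45), the proteases 2 and 2 of 8 (median -0.21), and the tendon and cartilage list 0 and 2 of 5 (median -1.51). Of the genes counted here, Mertk and Itgb8 did not pass the filter in CD45- cells, nor Tgfb2, Ccn5 and Fbln5 in CD45+ cells. Their tumour difference was not fitted in that gate. The 7 matricellular genes fell to 4 without 67NR CD45+ animal 4 and to 3 without 66cl4 animals 5 and 6, which left 1 protease. The 2 tendon and cartilage genes fell to 1 without the CD45+ library of 66cl4 animal 3, of 67NR animal 4 or of 67NR animal 5, or without the CD45- library of 67NR animal 6.

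The genes most like each member were named by the Pearson correlation of log2 CPM over the 20 libraries, among 16453 genes. These libraries fall into 4 groups and share depth and sorting, so the values describe the pattern and carry no test. Nearest to Thbs1 were Arl5b (r = 0.969), Ak4 (0.958) and Pdk1 (0.952), of which Ak4 encodes a mitochondrial adenylate kinase and Pdk1 pyruvate dehydrogenase kinase. Pdk1 had 801 ± 144 and 969 ± 97.7 normalised counts in 66cl4 CD45+ and CD45- cells and 199 ± 41.8 and 81.3 ± 34.4 in 67NR cells, with the separation of the tumours seen for Thbs1. Nearest to Thbs2 were Fstl1 (0.978), Postn (0.969) and Fbxo21 (0.963), the first 2 being secreted proteins of the stroma. Thbs3 was most like Gm10040 (0.988), Clu (0.987), which encodes clusterin, and Eps8l2 (0.983). Comp was closest to Tspan5, Phldb1 and Smurf1 (0.925, 0.920 and 0.919), and Thbs4, at its low counts, to Herpud2, Anks3 and Unc13b (0.827, 0.818 and 0.810). Cd36 was closest to Rnf144a (0.963), Fam78b (0.960) and Adam10 (0.959). Rnf144a had 491 ± 97.3, 144 ± 24.6, 9.95 ± 5.23 and 48.2 ± 14.1 in 66cl4 CD45+, 67NR CD45+, 66cl4 CD45- and 67NR CD45- cells, the order of groups found for Cd36. Cd47 was closest to Chsy1 (0.972), Ugcg (0.965) and Ifng (0.964). Ifng, interferon gamma of lymphocytes, had 46.0 ± 17.3, 400 ± 201, 0.566 ± 0.877 and 17.4 ± 5.19 in the same order, a far wider range than that of Cd47.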

How the data were processed

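CD45+ and CD45- cells of 10 tumours gave 20 libraries (SENSE mRNA-Seq, single reads of 86 cycles). The authors trimmed reads with fastp, quantified transcripts with Salmon 1.3.0, used tximport to reach gene level, and deposited estimated counts (expected counts, not normalised). The study's methods name a human reference, whereas the identifiers are of mouse, and the mouse build is not given in the sources used here. Counts were rounded. Whether quantification used strand is not given in the sources used here. Symbols came from a table of mouse names that held 51492 of 52783 identifiers. Samples were grouped by title, in which 1 column is titled with another marker number. The members and lists were chosen with earlier results of these data known.

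Groups were compared in R 4.3.3 with edgeR 4.0.16 (quasi-likelihood, TMM, robust, minimum count 10 and minimum total 15 by group), and Benjamini-Hochberg adjustment covered all genes tested. Calls needed an adjusted p under 0.05 with a log2 fold change beyond 1 in size. Differences of the tumour effect were an interaction over 20 libraries with the p threshold alone. Standard errors are the absolute log2 fold change divided by the root of F, and 95% intervals span 1.96 of them. Normalised counts used size factors of DESeq2 1.42.0, and TPM used GENCODE M21 transcript lengths, which 1291 genes lack. Figures were drawn with matplotlib. The genes named are the 7 members, Ptprc, up to 3 called genes per list and direction, and 3 neighbours per member by log2 CPM with a prior count of 2. Individual markers and Adipoq, Lep and Pf4 come from the marker lists and were picked for their known roles. Simulated counts with 200 changed genes were tested first, and in the CD45- comparison of 14844 genes 190 were recovered. In the CD45+ comparison 185 were recovered. For the interaction 161 were recovered, the fewest, and 5.85% of the calls were false. No replicates were alike within sampling noise. Each tumour was sorted into both gates, so libraries of 1 animal are paired. Their deviations from the group means correlated at 0.025 to 0.15 (66cl4) and -0.0033 to 0.32 (67NR). Alternatives were DESeq2, RLE factors, 2 other filters, all libraries in 1 fit, the replicate block, each library left out, and 66cl4 animals 5 and 6 left out.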

Additional observations from a re-analysis of the deposited data

Results flagged for a closer look

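In groups of 5 libraries, values were examined for a single sample far from the others by Dixon's criterion at a critical value of 0.71. Of 32 groups, 3 met it, where chance gives about 1 in 20 groups, or 1.6. Thbs3 in 66cl4 CD45+ animal 3 was 6.95 normalised counts, against 16.1 to 18.3 in the other animals. Thbs4 in 67NR CD45+ animal 5 was 4.07, against 10.3 to 12.5. The total count of 67NR CD45- animal 7 was 16917109, against 21199064 to 22180348. For Cd36 the tumour effect had opposite directions in the gates, with every 66cl4 library above every 67NR library in CD45+ cells and below it in CD45- cells. The difference of the effects was 5.75 on the log2 scale and was not tested, since the CD45+ values chose the gene.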

How the results depend on the processing

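The tested values of the members are counted here together with the described values of Comp. Of these, 16 results under an alternative had the opposite sign, all for the difference of the tumour effect in Comp. A further 12 passed a threshold that the value reported did not. Comp had 0.04, and -0.011 without a filter, -0.046 with at least 10 counts in 5 libraries and -0.41 without 66cl4 animals 5 and 6. With single libraries left out it spanned -0.18 to 0.59, without a call. The same difference in Thbs3, -0.99, passed the threshold by DESeq2 (-0.98, adjusted p = 0.0307) and with at least 10 counts in 5 libraries (-1.10, adjusted p = 0.0367). With each library left out it was -1.19 to -0.57, with adjusted p from 0.0148 to 0.205. In Thbs4 it was 1.05 to 2.09, past the threshold only without the CD45- library of 66cl4 animal 5. Thbs2 in CD45- cells was called without 66cl4 animals 5 and 6 (1.17). The calls of Thbs1 and Cd36 in CD45- cells and of Thbs2 and Thbs3 between the gates held under all alternatives run. Comp stayed lower in CD45+ cells of both tumours under all of them. The replicate block changed no call of a member; with it Cd36 in CD45- cells was -2.66 (adjusted p = 0.0393; the tumours share only animal numbers) and 6616 genes were called between the gates of 66cl4 tumours, against 6621. Counts of called genes over all genes stayed within 1.5 times in all 5 comparisons. Without animals 5 and 6 the CD45+ counts of the latent TGF-beta, matricellular and protease lists fell to 1, 2 and 3 called genes. The 67NR gates hold none of these animals, so that alternative gives no value there. The causes were not tested. Thbs4 and the CD45+ levels of Comp are limited by depth.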
